A study of Mus musculus with 6 samples.

Results

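Pcna, the 6 genes Mcm2 to Mcm7, Rrm1, Rrm2 and Tyms, which encode core proteins of DNA replication and of deoxynucleotide supply, were followed in CD4+ T cells of mouse liver. They are 10 of the 23505 gene rows of the count table, chosen by name, and all 10 had enough counts to be tested, as did 10509 genes in all. The wild-type mice had an immune hepatitis, set off by injecting the T-cell-activating lectin concanavalin A (ConA). The ConA group (3 libraries) was gavaged with phosphate-buffered saline and the ConA+SIM group (3 libraries) with simvastatin, a statin that blocks an early step of cholesterol synthesis, at 30 mg/kg. Gavage was daily in the 5 days before ConA, once 1 h before it and once 24 h after it, and both groups received ConA, so that neither shows the liver without hepatitis. Cells were sorted as CD3-positive, CD4-positive, CD8-negative and NK1.1-negative. Age, sex, strain and any pooling of animals are not stated in the labels. The question is what simvastatin does to liver CD4+ T cells in this hepatitis.

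A cell that is about to copy its DNA loads the MCM2-7 helicase, a ring of 6 related subunits, onto replication origins with the help of ORC, CDC6 and CDT1. Once origins fire, the helicase unwinds DNA, and PCNA, a ring-shaped clamp, holds the DNA polymerases on it and recruits ligase, nuclease and chromatin assembly factors. Ribonucleotide reductase, made of the large subunit RRM1 and the small subunit RRM2, turns ribonucleotides into deoxynucleotides, and thymidylate synthase (TYMS) makes the thymidine nucleotide. Activated T cells divide fast and induce these genes together, largely through E2F transcription factors.

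Promoter windows (250 bases before to 50 after a start site) came from RefSeq on GRCm38.p6, which held 9 of the 10 genes; Mcm4 had no entry. Each was searched on both strands for 4 octamers of the E2F type, TTTCCCGC, TTTCGCGC, TTTGCCGC and TTTGGCGC, which can overlap one another. At least 1 was found in 4 of the 9 genes, Mcm3, Mcm5, Mcm6 and Mcm7, and in 2.6% of all 27025 genes with a window. The pentamer CCAAT was found in 8 of the 9 and in 41.1% of all genes. The 250 bases upstream of a RefSeq start site are shown for 3 MCM genes, 5′ to 3′ on the strand of the gene, with the octamers in capitals. Mcm2 was chosen because it had the lowest fold change of the 10 genes. Mcm5 and Mcm6 were chosen because their octamers lie upstream of the RefSeq start and of the start of the GENCODE transcript used here for length. RefSeq starts the Mcm5 gene at base 75109468, so the last bases of its window lie inside the gene. The Mcm5 octamers lie before that base. The windows of Pcna and Mcm7 are not shown, since their RefSeq start sites lie inside first exons of GENCODE M21 and part of each window is transcribed by that annotation.
Mcm2 promoter, chr6:88898781-88899030, minus strand: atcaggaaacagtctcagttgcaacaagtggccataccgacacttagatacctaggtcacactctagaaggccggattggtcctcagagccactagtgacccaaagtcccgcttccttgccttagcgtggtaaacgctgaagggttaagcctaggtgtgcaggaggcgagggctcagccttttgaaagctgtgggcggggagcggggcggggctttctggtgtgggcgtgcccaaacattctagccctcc
Mcm5 promoter, chr8:75109259-75109508, plus strand: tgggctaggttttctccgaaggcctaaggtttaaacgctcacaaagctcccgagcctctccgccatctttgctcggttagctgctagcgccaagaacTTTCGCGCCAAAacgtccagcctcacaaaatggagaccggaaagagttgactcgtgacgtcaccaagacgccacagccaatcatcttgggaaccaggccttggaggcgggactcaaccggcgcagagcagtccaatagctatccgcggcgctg
Mcm6 promoter, chr1:128359706-128359955, minus strand: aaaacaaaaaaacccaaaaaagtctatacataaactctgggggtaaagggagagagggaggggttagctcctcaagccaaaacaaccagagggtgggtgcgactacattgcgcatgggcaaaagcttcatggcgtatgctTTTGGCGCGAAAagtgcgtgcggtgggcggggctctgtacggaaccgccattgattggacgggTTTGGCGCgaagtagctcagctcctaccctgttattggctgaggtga
In Mcm5, TTTCGCGC and the reverse complement of TTTGGCGC overlapped. In Mcm6, TTTGGCGC and the reverse complement of TTTCGCGC overlapped, and a further TTTGGCGC lay nearer to the start. Mcm7 held 1 octamer before and 1 after the start site, and Mcm3 held 2 after it. No octamer of these letters was in the windows of Pcna, Mcm2, Rrm1, Rrm2 and Tyms. A match is a description of the letters only.

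The smallest library, ConA+SIM replicate 2, held 17549429 counts and the largest, ConA replicate 3, 25031862. The labels do not say that libraries of a group came from separate animals, so that p-values measure the spread between these libraries, which may be technical. Counting error was small for these genes: the lowest count was 1038, for Mcm7 in ConA+SIM replicate 2, with an exact 95% Poisson interval of 976 to 1103 that covers counting error only. ConA+SIM replicate 2 stood apart, with no count for 18.4% of tested genes, where the remaining 5 libraries had none for 2.76% to 9.98%. The CD3 and CD4 markers of the sort were present, with mean Cd4 levels of 599 ± 148 CPM (ConA) and 491 ± 63.3 CPM (ConA+SIM; SD, n = 3), where CPM is the usual count scaled to library size, here after TMM scaling.

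Of the 10 genes, Pcna was the 1 that rose and 0 fell, at an adjusted p under 0.05 in the quasi-likelihood test of edgeR. Over all tested genes 0.542% rose and 0% fell. At an unadjusted p under 0.05, 1 of the 10 was higher and 1 lower, against 5.31% and 3.54% of all tested genes. DESeq2 called Pcna higher and Mcm2 lower, where it called 6.78% higher and 3.82% lower of the 5207 genes to which it gave an adjusted p, and limma-voom called Pcna alone (1.14% of all genes higher, 0.0761% lower). Mean levels in ConA+SIM were below ConA in 6 genes (Mcm2, Mcm3, Mcm5, Mcm6, Mcm7 and Rrm2) and above it in 4 (Pcna, Rrm1, Tyms and, by a log2 fold change of 0.04, Mcm4), where 52.0% of all tested genes were lower and 48.0% higher. The median log2 fold change of the 10 was -0.34, beside -0.041 over all tested genes.

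**Figure D1:**
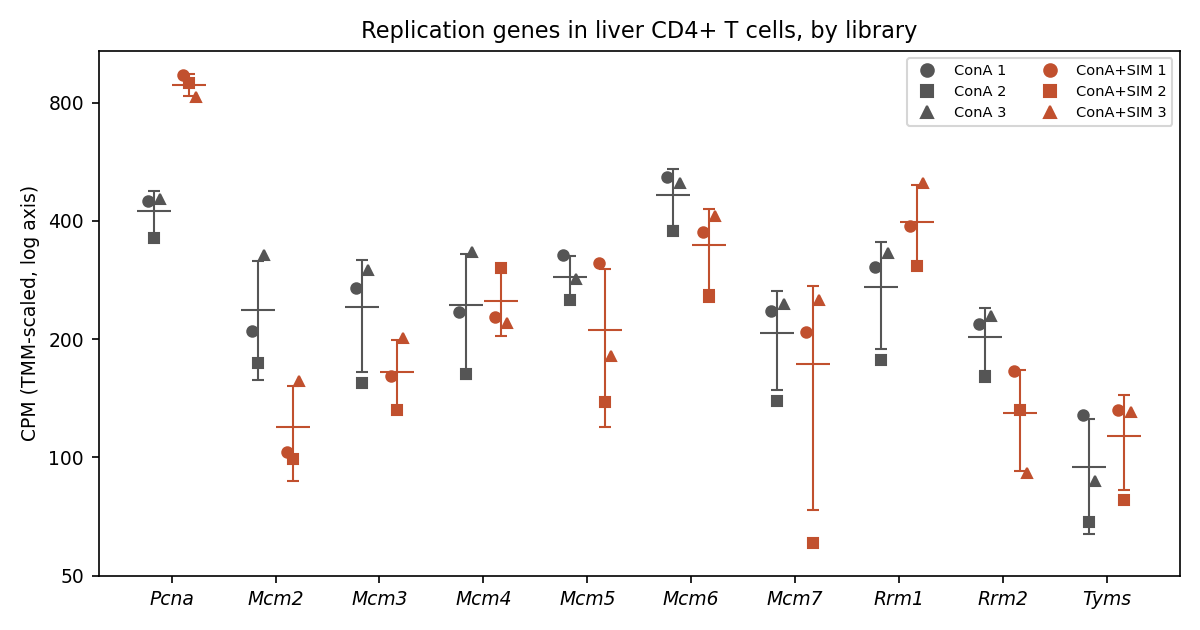
Levels of the 10 replication genes in each library, in CPM on a log axis, with ConA in grey and ConA+SIM in red, symbols for replicates, long bars for means and error bars for SD (n = 3). The groups are apart in Pcna (ConA+SIM higher) and Mcm2 (ConA+SIM lower) and overlap in the other 8.

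Pcna (chromosome 2, 132249286 to 132253180, minus strand, GRCm38; 6 exons) had levels of 450.3, 362 and 455 CPM across the ConA libraries, listed here and below in replicate order, and of 938, 899 and 826 CPM across the ConA+SIM libraries. All 3 ConA+SIM libraries lay above all 3 ConA libraries, and the SD was 12.4% of the mean in ConA and 6.4% in ConA+SIM, the tightest of the 10 genes in both groups. Pcna rose from 423 ± 52.4 to 888 ± 56.8 CPM (SD, n = 3), a 2.1-fold rise (edgeR, log2 scale, 1.07 ± 0.18 SE; adjusted p = 0.0413). Groups without overlap and higher in ConA+SIM were seen in 9.18% of all tested genes.

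The rise of Pcna kept its direction in all 16 alternative analyses, from 0.59 to 1.15 on the log2 scale, and passed the threshold in 6 of them. With 1 library left out the log2 fold change stayed at 0.96 to 1.15 and the adjusted p was 0.125 to 0.268, in fits that called 0 to 3 of all genes higher. The call also ended after each library's trend with transcript length was removed (log2 fold change 0.9, adjusted p = 0.351; the Pcna transcript is 1518 nt long) and after removal of trends with length and GC content (0.59, adjusted p = 0.924). Genes for ribosomal proteins took 8.56% to 10.2% of counts in ConA and 14.4% to 16.5% in ConA+SIM. With them left out, the log2 fold change of Pcna was 1.08 (adjusted p = 0.135). RefSeq also lists pseudogenes of Pcna and Tyms, not analysed here, and the treatment of multiply matching reads in the counting is not known.

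Among the MCM genes, Mcm2 (chromosome 6, 88883474 to 88898780, minus strand), which takes part in histone handling at the fork beside its helicase role, differed most between the groups. Its levels were 210.1, 174 and 327 CPM across the ConA libraries and 103, 98.8 and 157 CPM across the ConA+SIM libraries. The groups did not overlap, as in 8.57% of all tested genes in that direction. The means were 237 ± 79.8 and 120 ± 32.3 CPM (SD, n = 3), and the log2 fold change of -0.99 ± 0.33 (SE) did not pass with edgeR (adjusted p = 0.388). Mcm2 passed with DESeq2 (-0.99, adjusted p = 0.017), and over 16 alternatives it ran from -1.23 to -0.55, weakest after length and GC correction.

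Mcm6 (chromosome 1, 128331575 to 128359705, minus strand) was at 516, 378 and 499.8 CPM in ConA and at 375, 256 and 412 CPM in ConA+SIM. Its groups overlapped by 1 library, the ConA replicate 2 value lying below that of ConA+SIM replicate 3, and the log2 fold change was -0.42 ± 0.24 (SE, adjusted p = 0.778, edgeR). Mcm3 (chromosome 1, 20802966 to 20820312, minus strand) was at 269.5, 155 and 300.1 CPM in ConA and at 161, 132 and 201 CPM in ConA+SIM. Here too the overlap came from ConA replicate 2, and the log2 fold change was -0.55 ± 0.31 (SE, adjusted p = 0.755, edgeR). Over the 16 alternatives Mcm3 ran from -0.80 to -0.27 and Mcm6 from -0.56 to -0.24.

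Mcm5 (chromosome 8, 75109468 to 75128439, plus strand) was at 327, 251 and 285 CPM in ConA and at 313, 138 and 181 CPM in ConA+SIM. ConA+SIM replicate 1 was at the level of the ConA libraries and the other 2 were below all of them (log2 fold change -0.45 ± 0.32, SE; adjusted p = 0.891, edgeR). Mcm7 (chromosome 5, 138164583 to 138172111, minus strand), whose introns carry the microRNA genes Mir106b, Mir93 and Mir25, was at 236, 139 and 245 CPM in ConA and at 208, 60.6 and 251 CPM in ConA+SIM. A single library, ConA+SIM replicate 2, set its mean difference: the log2 fold change was -0.26 ± 0.48 (SE, adjusted p = 0.999, edgeR) and turned to 0.15 without that library. Exons of Mcm7 overlap exons of Ap4m1 and Cops6 on the opposite strand, by up to 247 bases, and since the strand setting of the counting is not known their reads cannot be told apart there.

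Mcm4 (chromosome 16, 15623897 to 15637400, minus strand) was at 235, 163 and 333 CPM in ConA and at 227, 304 and 219.99 CPM in ConA+SIM. It was the MCM gene with the smallest difference between group means (log2 fold change 0.04 ± 0.30, SE; adjusted p = 0.999, edgeR), and in ConA+SIM replicate 2, where the other 5 MCM genes were at their lowest, Mcm4 was at its highest for the group. The median log2 fold change of the 6 MCM genes was -0.43, beside -0.041 over all tested genes. Of the 6, 1 had groups that did not overlap, with ConA+SIM lower, as 8.57% of all tested genes had. Their summed level was 1794, 1261 and 1990.1 CPM in ConA and 1388, 990.1 and 1422 CPM in ConA+SIM. The ConA replicate 2 sum lay inside the ConA+SIM range, so the sums overlapped. By edgeR 0 of the 6 rose and 0 fell. Bulk libraries do not tell the share of cells in S phase from the level of each RNA per cell, and neither was tested.

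The same libraries were often lowest in several genes. ConA replicate 2 had the lowest value of its group in 10 of the 10 genes, as in 36.5% of all tested genes (38.0% for replicate 1 and 25.4% for replicate 3). In ConA+SIM the lowest value was that of replicate 2 in 7 of the 10 genes and of replicate 3 in 3, beside 46.2% and 24.9% of all tested genes (28.9% for replicate 1). Mcm3 and Mcm6 had the most similar profile of any pair among the 10 genes, with a root mean square difference of 0.183 between their centred log2 CPM over the 6 libraries. Pcna and Mcm2 had the least similar (1.07). The gene closest to Pcna among the other 9 was Rrm1 (0.391). These distances are descriptions over 6 libraries.

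Levels of different genes were compared per length, as CPM divided by transcript length in kb. In ConA, Pcna was highest at 278 ± 34.5 CPM per kb (SD, n = 3), followed by Mcm6 at 160 ± 26.0. Rrm2 (92.4 ± 16.8), Mcm5 (85.1 ± 11.3), Mcm3 (79.7 ± 25.2), Mcm2 (70.3 ± 23.7), Mcm7 (69.8 ± 19.8), Mcm4 (67.9 ± 23.7) and Rrm1 (67.8 ± 20.7) formed a run of levels per kb in which neighbours differed by less than their SD, and Tyms was lowest (29.9 ± 9.70). In ConA+SIM the level per kb of Pcna was 585 ± 37.4, that of Mcm6 119 ± 28.0 and that of Rrm1 99.5 ± 24.2, the last pair within their SD. Mcm4, Mcm5, Rrm2, Mcm7 and Mcm3 followed at mean levels of 69.8 to 54.4 CPM per kb, neighbours again within their SD, and Tyms (35.9 ± 9.71) and Mcm2 (35.5 ± 9.59) were lowest. The order depends on the length used. With the longest transcript of each gene, Mcm6 was at 107 ± 17.4 CPM per kb in ConA, still behind Pcna alone. Per coding length (921 of 3163 nt in Tyms), the level of Tyms was 103 ± 33.3 CPM per kb in ConA and no longer the lowest.

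The make-up of the MCM transcripts was described by the share of each gene in the summed MCM level per kb. Mcm6 made up 30.3% ± 2.65 in ConA and 29.7% ± 1.31 in ConA+SIM (SD, n = 3). Mcm2 made up 10.9%, 12.9% and 15.4% in ConA and 6.97%, 9.54% and 10.2% in ConA+SIM, the one subunit whose shares did not overlap between the groups. Mcm4 took 27.6% of the sum in ConA+SIM replicate 2 against 11.4% to 14.8% in the other 5 libraries, and Mcm7 took 6.66% there against 11.8% to 18.7%. With the longest transcript as length, Mcm6 was not the largest share in ConA+SIM replicates 1 (Mcm5 23.8%, Mcm6 22.1%) and 2 (Mcm4 31.2%, Mcm6 21.6%), and with coding length not in replicate 2 (Mcm4 29.2%, Mcm6 25.8%). The ratio of the highest to the lowest MCM gene in a library, per kb, was 2.07 to 2.85 in ConA and 3.04 to 4.30 in ConA+SIM. How often other sets of genes are apart in such shares or in such a ratio was not computed. The Mcm2 share also restates in part the lower level of Mcm2.

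**Figure D2:**
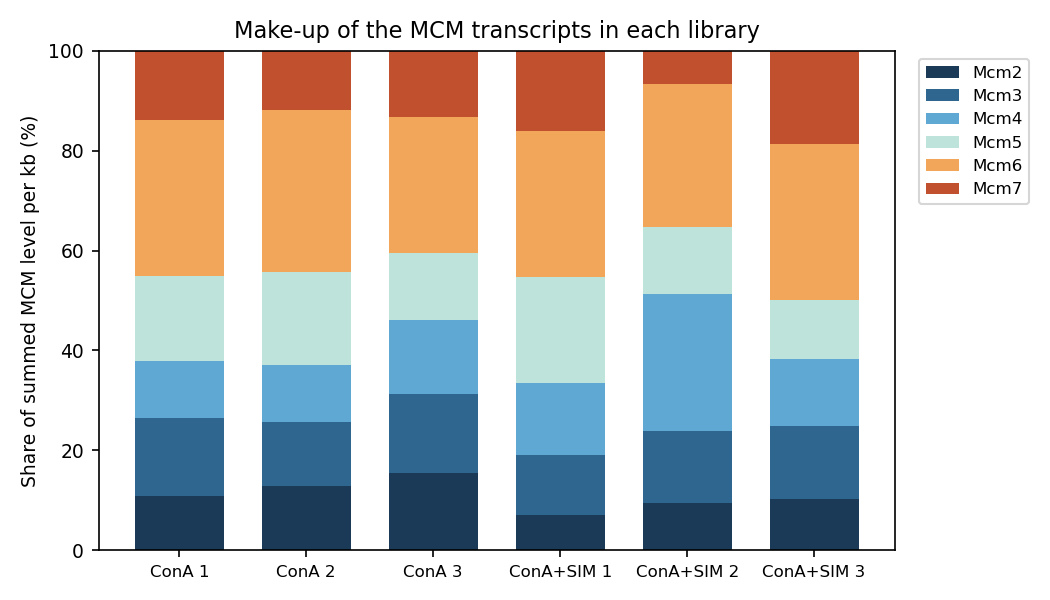
Share of each MCM gene in the summed MCM level per kb, as stacked bars in percent for each of the 6 libraries. With the length used here Mcm6 holds the largest share in every library, from 27.4% to 32.5%, the share of Mcm2 is smaller in the ConA+SIM libraries, and ConA+SIM replicate 2 differs from the rest in Mcm4 and Mcm7.

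Ratios within a library do not depend on how libraries are scaled to one another. Pcna over the mean of the 6 MCM genes, per kb, took the values 3.12, 3.58 and 2.87 across the ConA libraries and 8.44, 11.6 and 7.19 across the ConA+SIM libraries. Taken singly, Pcna over each of the 6 MCM genes was higher in every ConA+SIM library than in any ConA library, 6 of 6 ratios, where Pcna over any tested gene was apart in that way for 38.8% of genes. The ratio of mean ratios ran from 1.97 for Mcm4 to 4.18 for Mcm2. Pcna over Mcm6 was the steadiest in ConA, at 1.67, 1.84 and 1.75 per kb, and was 4.79, 6.73 and 3.84 in ConA+SIM. The log2 fold change of Pcna exceeded that of each MCM gene in all 16 alternatives, least with length and GC correction, by 0.58 (Mcm4) to 1.14 (Mcm2).

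**Figure D3:**
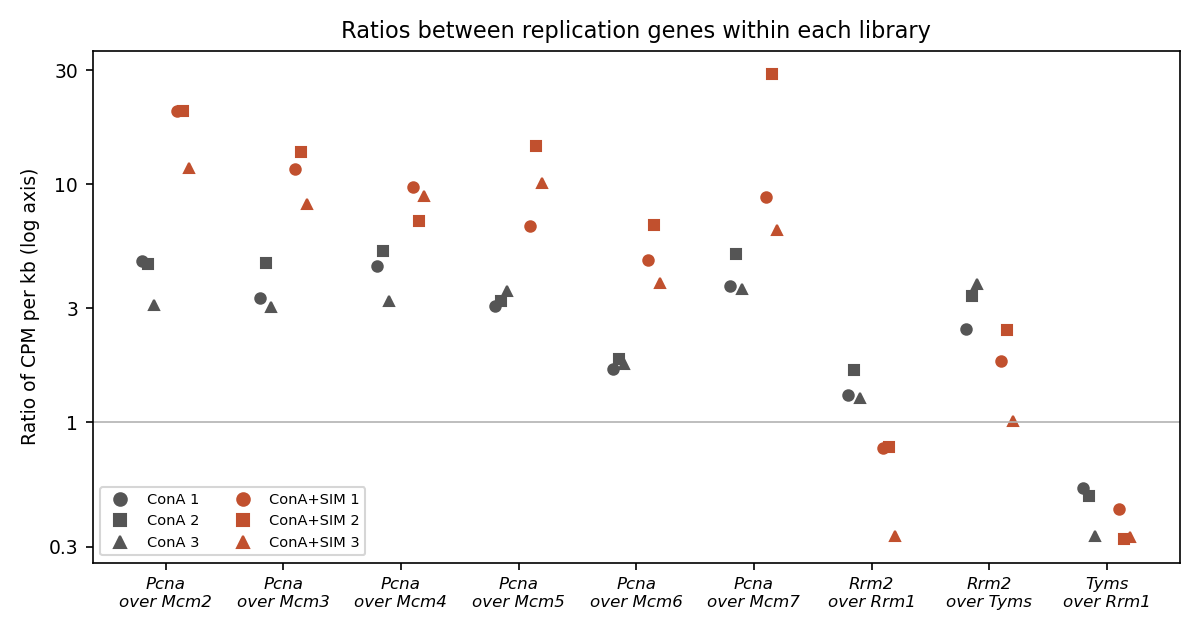
Ratios of levels per kb between pairs of genes in each library, on a log axis, with ConA in grey and ConA+SIM in red and symbols for replicates. The 6 ratios of Pcna to an MCM gene are higher in every ConA+SIM library, Rrm2 over Rrm1 and Rrm2 over Tyms are lower, and Tyms over Rrm1 overlaps.

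The subunits of ribonucleotide reductase differed in opposite directions, and neither difference passed the test. Rrm1 (chromosome 7, 102441695 to 102469771, plus strand), the large catalytic subunit, was at 306, 177 and 331 CPM in ConA and at 387, 307 and 499.5 CPM in ConA+SIM. ConA+SIM replicate 2 lay between ConA replicates 1 and 3, and the log2 fold change was 0.55 ± 0.29 (SE, adjusted p = 0.696, edgeR). Rrm2 (chromosome 12, 24708254 to 24714146, plus strand), the small radical-bearing subunit, was at 219 (replicate 1), 160.4 (replicate 2) and 228 (replicate 3) CPM in ConA and at 166, 132 and 91.3 CPM in ConA+SIM. ConA replicate 2 lay just below ConA+SIM replicate 1, and the log2 fold change was -0.64 ± 0.31 (SE, adjusted p = 0.620, edgeR). Rrm2 over Rrm1, per kb, was 1.30, 1.65 and 1.26 in ConA and 0.780, 0.782 and 0.333 in ConA+SIM. All 3 ConA+SIM ratios lay below all 3 ConA ratios, as they did for 19.1% of tested genes set over Rrm1. The log2 fold change of Rrm1 exceeded that of Rrm2 in all 16 alternatives, by 0.80 to 1.43.

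Tyms (chromosome 5, 30038546 to 30073645, minus strand) was at 128, 68.3 and 87.0 CPM in ConA and at 132, 78.0 and 131 CPM in ConA+SIM. The groups overlapped throughout, and their means differed by 0.26 ± 0.37 (SE) on the log2 scale (adjusted p = 0.999, edgeR). Rrm2 over Tyms, per kb, was 2.46 to 3.79 in ConA and 1.01 to 2.43 in ConA+SIM, without overlap, as for 11.5% of tested genes set over Tyms. Tyms over Rrm1 overlapped between the groups.

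**Figure D4:**
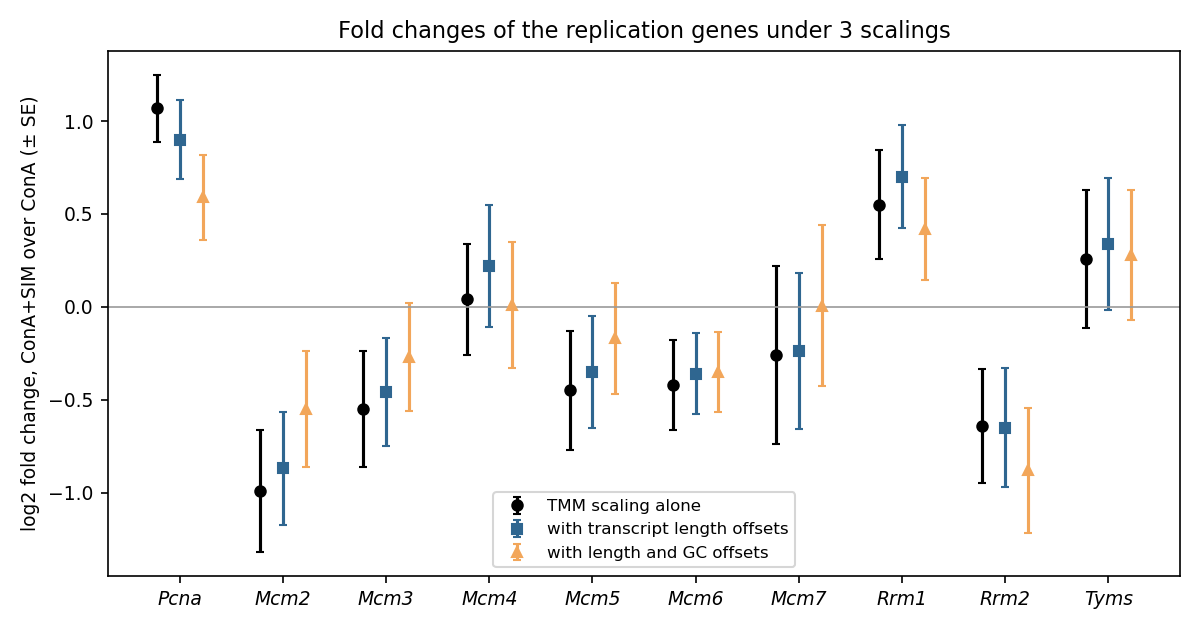
Log2 fold changes of ConA+SIM over ConA for the 10 genes, with SE as error bars, under TMM scaling alone (black), with transcript length offsets (blue) and with length and GC offsets (orange). Pcna goes from 1.07 to 0.59 and Mcm2 from -0.99 to -0.55, Mcm7 from -0.26 to 0.0061, and Rrm2 from -0.64 to -0.88.

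Beyond the 10 genes, 9 lists of replication, nucleotide and G1/S genes held 130 genes, of which 127 were tested. By edgeR 0 rose and 0 fell, beside 0.542% and 0% of all tested genes. At an unadjusted p under 0.05, 5 were higher and 4 lower, beside 5.31% and 3.54% of all tested genes. DESeq2 called 2 higher and 2 lower, limma-voom 0, and limma-voom with sample quality weights 1 higher and 0 lower. Of all genes with an adjusted p, DESeq2 called 6.78% higher and 3.82% lower, and limma-voom 1.14% and 0.0761%. Groups were apart with ConA+SIM higher in 7.87% and lower in 5.51% of the 127, beside 9.18% and 8.57% of all tested genes. The median log2 fold change of the 127 was -0.066, beside -0.041 over all tested genes.

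The origin licensing list had a median of 0.51 over 10 genes (0.29 to 0.73 over the alternatives). It had 8 higher and 2 lower values, 0 past the test and 2 higher at an unadjusted p under 0.05. Over all tested genes 48.0% had higher values and 5.31% were higher at that p. Gmnn, which encodes geminin, the inhibitor of CDT1, was at 75.6, 51.5 and 49.999 CPM in ConA and at 176, 132 and 84.0 CPM in ConA+SIM. The groups did not overlap (log2 fold change 1.15 ± 0.39, SE; adjusted p = 0.392, edgeR; 0.0339 with DESeq2). Orc4 and Orc6, subunits of the origin recognition complex, had log2 fold changes of 1.30 ± 0.48 and 0.80 ± 0.39 (SE), also with groups apart and without passing (adjusted p = 0.434 and 0.63, edgeR). In all, 4 of the 10 genes were apart and higher and 0 apart and lower, beside 9.18% and 8.57% of all tested genes. The list as a whole was not tested. Cdc6 (0.11) and Cdt1 (0.0099), the loading factors of the MCM ring, were near 0 on the log2 scale, and Orc1 had 0 counts in ConA+SIM replicate 2 (-0.77 ± 1.97, SE).

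In the list of origin firing and fork helicase genes, 0 of 14 passed by edgeR, 0 had an unadjusted p under 0.05 and the median was -0.094, turning from -0.33 to 0.18 with 1 library left out. The smallest p-values were those of Timeless (log2 fold change -0.79), Dbf4 (0.46) and Tipin (0.51), and Mcm10, which bridges the helicase and the primase, had 0 counts in ConA+SIM replicate 2 (-0.89 ± 1.57, SE). The plain row of Cdc45 was empty in all libraries. The row Cdc45_1, a further copy of the symbol, held 698, 482 and 249 counts in ConA and 454, 0 and 1260 in ConA+SIM. ConA+SIM replicate 2 had 13 of the 137 tested replication genes at 0 counts (9.49%), more than any other library (1 to 8). Of all tested genes, 18.4% were at 0 counts in that library. A count of 0 allows up to 3 counts, 0.175 CPM in that library.

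Of 11 polymerase and primase genes 0 passed by edgeR, with 0 at an unadjusted p under 0.05 and a median of 0.43 (0.20 to 0.66 over the alternatives). Pole, the catalytic subunit of the leading-strand polymerase, was at 67.4, 68.6 and 81.0 CPM in ConA and at 45.2, 39.2 and 37.9 CPM in ConA+SIM. Its groups were apart (log2 fold change -0.83 ± 0.40, SE; adjusted p = 0.626, edgeR). Pola2 (-1.0 ± 0.54), Prim1 (0.99 ± 0.61) and Pola1 (0.56 ± 0.42), all of the primase complex, overlapped between groups and differed in direction (log2 fold change ± SE). Genes for loading and unloading the PCNA clamp had a median of -0.33 over 8 tested genes, with 0 past the test and 0 at an unadjusted p under 0.05. This median ran from -0.59 to 0.084 with 1 library left out, being 0.084 without ConA replicate 1 and 0.064 without ConA+SIM replicate 2, and was 0.24 with sample quality weights. Rfc5 stood at 0.90, Rfc4 at 0.56, Rfc2 at -0.38 and Rfc1 at -0.57 on the log2 fold change scale.

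Among 10 genes of Okazaki fragment and single-strand DNA handling, 0 passed by edgeR. At an unadjusted p under 0.05, 1 was higher, as were 5.31% of all tested genes. The 1 gene was Rpa3, the smallest subunit of the single-strand binding protein. Rpa3 was at 16.3, 19.2 and 20.7 CPM in ConA and at 91.0, 13.4 and 80.6 CPM in ConA+SIM. Its ConA+SIM libraries were split, with replicate 2 below all ConA libraries (log2 fold change 1.72 ± 0.74, SE; adjusted p = 0.545, edgeR). Lig1, the replicative DNA ligase, had a log2 fold change of -0.59 ± 0.31, Rnaseh2b one of 0.56 ± 0.46 and Fen1, the flap nuclease that PCNA stimulates, one of -0.30 ± 0.49 (SE). The median was 0.34, and -0.15 after transcript length correction and -0.056 after length and GC correction.

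Of 12 genes for proteins that bind PCNA, 0 passed by edgeR, 1 had an unadjusted p under 0.05 and the median was -0.32 (-0.62 without ConA replicate 2, -0.0067 without ConA replicate 3). The 1 gene was lower, as were 3.54% of all tested genes at that p. Dnmt1, the maintenance DNA methyltransferase, was at 444, 138 and 422 CPM in ConA and at 175, 158 and 150.3 CPM in ConA+SIM, with ConA replicate 2 below all ConA+SIM libraries (log2 fold change -1.05 ± 0.40, SE; adjusted p = 0.451, edgeR; 0.0306 with DESeq2). Chaf1a, the large subunit of the chromatin assembly factor, had groups apart (-1.34 ± 0.62, SE; adjusted p = 0.592, edgeR). Uhrf1, the partner of DNMT1, stood at -0.57 and Cdkn1a, the CDK inhibitor p21, at -0.85. Pclaf, a small PCNA-associated factor, stood at 0.45 (log2 fold changes). Pcna thus differed in sign from Dnmt1, Chaf1a and Uhrf1, and these differences were not tested.

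In the deoxynucleotide list of 17 genes, 0 passed by edgeR, with 2 higher and 1 lower at an unadjusted p under 0.05. Over all tested genes 5.31% were higher and 3.54% lower at that p. The list median was -0.30, which turned to 0.05 without ConA replicate 3 and 0.06 without ConA+SIM replicate 2. Nme2, a nucleoside diphosphate kinase, was at 266, 255 and 269 CPM in ConA and at 489, 456 and 519 CPM in ConA+SIM. The groups were far apart relative to their SD (263.5 ± 7.49 and 488 ± 31.6 CPM, SD, n = 3; log2 fold change 0.89 ± 0.19, SE; adjusted p = 0.113, edgeR; 3.51e-05 with DESeq2), though reads can be split with the similar gene Nme1. Dctpp1, which removes unwanted dCTP, had groups apart at low levels (2.08 ± 0.78, SE; adjusted p = 0.445, edgeR). Dck, the salvage kinase for deoxycytidine, was at 138, 116 and 111 CPM in ConA and at 51.0, 23.3 and 93.2 CPM in ConA+SIM (-1.13 ± 0.49, SE; adjusted p = 0.552, edgeR). Dut, which keeps dUTP out of DNA, stood at -0.44, Rrm2b, the alternative small reductase subunit, at 0.56 and Tk1, the thymidine salvage kinase with 1 count in ConA+SIM replicate 2, at 0.034 (log2 fold changes).

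Among 19 genes of ribonucleotide synthesis, 0 passed by edgeR, 1 had an unadjusted p under 0.05 and the median was -0.13 (0.04 without ConA+SIM replicate 3). The 1 gene was lower, as were 3.54% of all tested genes at that p. Cad, which starts pyrimidine synthesis, was at 64.2, 69.6 and 48.2 CPM in ConA and at 18.8, 10.2 and 23.3 CPM in ConA+SIM. The groups were apart (log2 fold change -1.80 ± 0.58, SE; adjusted p = 0.377, edgeR; 0.0156 with DESeq2). Ctps, which makes CTP, was also apart and lower (-0.90 ± 0.65, SE; adjusted p = 0.90, edgeR), and Cmpk1 stood at 0.40.

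Of 26 genes for E2F factors, RB proteins and G1/S control, 0 passed by edgeR and 1 had an unadjusted p under 0.05. The 1 gene was lower, as were 3.54% of all tested genes at that p. The list median was 0.022 and ran from -0.18 to 0.078 with 1 library left out. E2f1, an activator of replication genes, was at 14.3, 8.66 and 19.6 CPM in ConA and at 30.1, 32.9 and 24.0 CPM in ConA+SIM, apart but with a wide error (log2 fold change 1.03 ± 0.98, SE; adjusted p = 0.997, edgeR). E2f2 stood at -0.079, Rb1 at -0.13, Ccne1 at 0.95 and Ccne2, with 0 counts in ConA+SIM replicate 2, at 0.67 ± 2.29 (SE). Ccnd2, a D-type cyclin, was at 223, 223 and 196 CPM in ConA and at 166, 90.7 and 133 CPM in ConA+SIM (-0.72 ± 0.29, SE; adjusted p = 0.495, edgeR), and its partner kinase gene Cdk6 stood at -1.67 ± 0.75 (SE; adjusted p = 0.575, edgeR), both with groups apart.

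Mitotic genes were set beside the replication genes. Of 17, 0 passed by edgeR, 2 had an unadjusted p under 0.05 and were lower, 12 had lower values (70.6%) and the median was -0.34. Over all tested genes 3.54% were lower at that p, 52.0% had lower values and the median was -0.041. Mki67, the gene of the Ki-67 proliferation antigen, was at 1049, 777 and 892 CPM in ConA and at 651, 406 and 767 CPM in ConA+SIM, without overlap (log2 fold change -0.58 ± 0.25, SE; adjusted p = 0.552, edgeR). Plk1, a mitotic kinase, stood at -1.59 ± 0.55 (SE; adjusted p = 0.392, edgeR; 0.0261 with DESeq2), Foxm1 at -1.14 and Top2a at -0.16. Pcna over Mki67, per kb, was 2.84, 3.09 and 3.38 in ConA and 9.55, 14.7 and 7.14 in ConA+SIM. Rrm1 over Mki67 was also apart, at 0.573 to 0.933 and 1.497 to 1.90, as were 19.8% of tested genes set over Mki67. The mean of the 6 MCM genes over Mki67, per kb, was 0.984 ± 0.171 in ConA and 1.13 ± 0.137 in ConA+SIM (SD, n = 3), and these ratios overlapped.

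**Figure D5:**
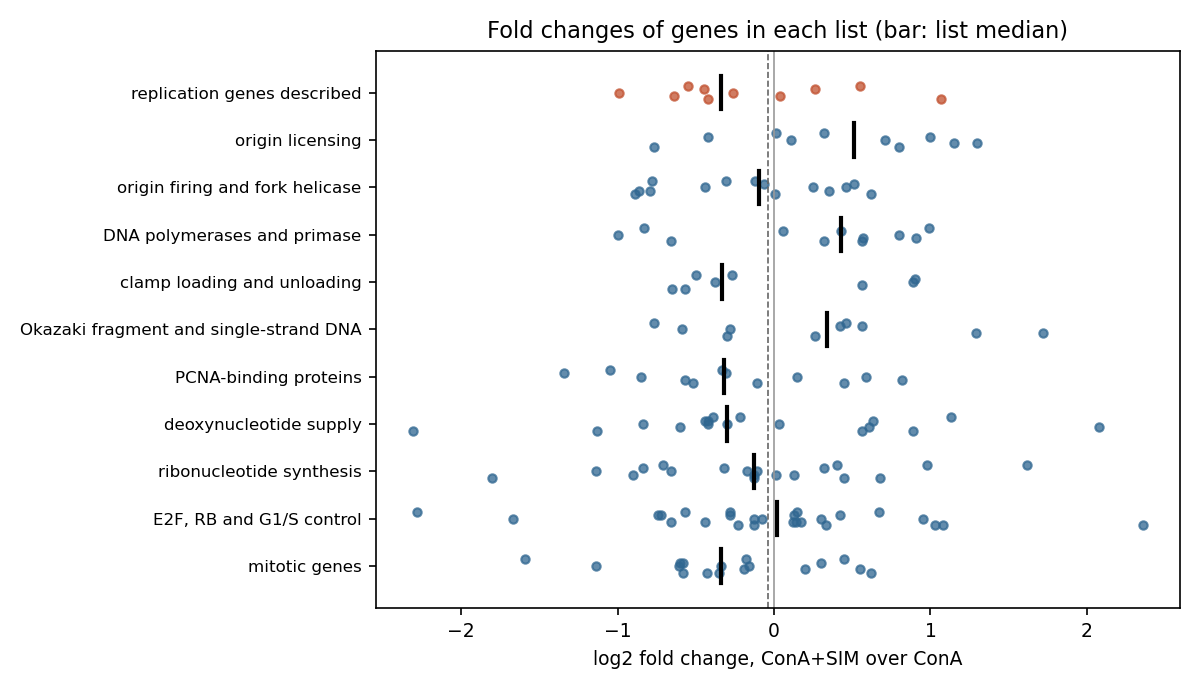
Log2 fold changes of ConA+SIM over ConA for each tested gene of the 10 described (red), the 9 other replication, nucleotide and G1/S lists and the mitotic genes (blue), with black bars for list medians and a dashed line for the median of all tested genes (-0.041). Medians lie between -0.34 (the 10 genes, mitotic genes) and 0.51 (origin licensing), and each list has genes on both sides of 0.

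Of 7037 tested genes with a mean of at least 20 CPM, those with a profile most like that of Pcna over the 6 libraries were Rps19, a ribosomal protein gene (root mean square difference of centred log2 CPM 0.038), the myosin light chain gene Myl6 (0.0727), Rpl21 (0.0799), Pycard (0.121) and Cd52 (0.124). None of these 5 is on the replication lists. The profile of the mean of the 6 MCM genes was near to those of Arntl (0.081), Abca7 (0.0951), Anxa6 (0.0979) and Nup54 (0.109), again outside the lists. Among the same 7037 genes Rrm1 was the nearest of the other 9 genes to Pcna, at rank 500 by distance.

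Markers of other cell types were measured beside these genes. T cell markers (7 tested of 8) summed to 2016 to 3189 CPM in the ConA libraries and to 2878 to 3002 CPM in the ConA+SIM libraries. For markers of CD8 T and NK cells (7 tested of 9) the sums were 164 to 318 and 315 to 573 CPM in the same order, with Ncr1 and Klra8 at 0 counts in all 6 libraries. Within this list Klrd1, a receptor subunit of NK and CD8 T cells, was at 15.3, 68.6 and 18.5 CPM in the ConA libraries and at 178, 173 and 139 CPM in the ConA+SIM libraries (log2 fold change 2.26 ± 0.58, SE; adjusted p = 0.225, edgeR; past the threshold in 3 of 16 alternatives). Klrb1c, the gene of the NK1.1 antigen gated out in the sort, had means of 14.8 ± 7.09 and 42.0 ± 2.58 CPM (SD, n = 3; log2 fold change 1.51 ± 0.77, SE; adjusted p = 0.672, edgeR). Both were apart and higher in ConA+SIM, as Pcna and 9.18% of all tested genes were. Of the 7 T cell markers, Cd3d (log2 fold change 0.77 ± 0.22, SE) and Cd3g (0.64 ± 0.21, SE) were also apart and higher, and 0 were apart and lower. Among the B and plasma cell markers Mzb1 was apart and higher. Cd8a, Cd8b1, Klre1, Eomes and Tyrobp overlapped between the groups. Klrd1 and Klrb1c were singled out after their values were seen. Erythroid markers (5 tested of 7) were at 43.8 to 115 and 229 to 343 CPM, apart and higher in ConA+SIM as Pcna was, with Klf1 at 0 counts in all libraries. Of these 5, the globin gene Hbb-bs rose (log2 fold change 2.07, adjusted p = 0.0485, edgeR). Hepatocyte markers (7 tested of 12) were at 75.2 to 134 and 129.6 to 227 CPM, Kupffer cell and macrophage markers (9 tested of 12) at 949 to 2193 and 245 to 1214 CPM, sinusoidal endothelial markers (8 tested of 9) at 238 to 1781 and 293 to 584 CPM, and B and plasma cell markers (7 tested of 9) at 114 to 1285 and 535 to 972 CPM. The part of these cells in the levels of the replication genes was not tested.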

How the data were processed

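RNA-seq read counts per gene of 6 libraries were deposited by the authors as 1 table. The submitters' processing notes name HISAT2 (2.1.0) and GRCm38. For the counting tool, annotation, strand setting and multiply matching reads: not given in the sources used here. Groups follow the labels. Genes passing filterByExpr (10509 of 23505) were tested with edgeR 4.0.16 (quasi-likelihood, robust, TMM, all 6 libraries, no covariate) in R 4.3.3, with Benjamini-Hochberg adjustment over all of them and a threshold of 0.05. Alternatives used DESeq2 1.42.0, limma 3.58.1, other scalings and filters, length and GC offsets, and left-out libraries. The test was checked on simulated data. In the deposited counts the common biological coefficient of variation came to 1.12. A gene that did not pass is not shown to be unchanged. Levels per kb used the GENCODE M21 transcript with the longest coding sequence, and profile distances used log2 CPM with a prior count of 2. Apart means that the highest value of one group lies below the lowest of the other. Named genes were, per list, the 3 with the smallest p-values plus genes set by name. Genes named for a small p-value tend to have groups apart for that reason. The 10 genes and all lists were chosen with earlier results of these data known. A few of the genes so chosen are not reported here.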

Additional observations from a re-analysis of the deposited data

How the results depend on the processing

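The cause was not tested for any change given here. Genes called lower numbered 1 with RLE scaling and 1 with no filter on low counts. DESeq2 called 353 higher and 199 lower, limma-voom 120 and 8, and limma-voom with sample quality weights 127 and 10. With the replicate block, length offsets, length and GC offsets, or ribosomal protein genes left out, 0 genes were called higher. Without 1 library, 0 to 3 were called higher, 3 of them without ConA+SIM replicate 3. Among the 10 genes, DESeq2 called 1 lower, and 0 were called higher with the replicate block, both offsets, ribosomal protein genes left out or any 1 library left out. On the other lists DESeq2 called 2 higher and 2 lower, and quality weights 1 higher. Pcna lost its call with the replicate block (1.08, adjusted p = 0.302), length offsets (0.90), length and GC offsets (0.59), ribosomal protein genes left out (1.08) and each left-out library (0.96 to 1.15). Deviations of same-numbered libraries correlated at 0.0111, 0.00878 and 0.0328 across genes, and not every library correlated best with its own number. With 3 libraries per group and a wide spread between them, these values cannot show whether replicate numbers pair the libraries.

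Log2 fold changes turned in sign as follows. Without 1 library the ranges were Mcm4 -0.19 to 0.36, Mcm7 -0.62 to 0.15, Cdc6 -0.11 to 0.32, Cdt1 -0.27 to 0.54, Fen1 -0.69 to 0.25, Tk1 -0.58 to 0.62, E2f2 -0.32 to 0.12, Rb1 -0.35 to 0.13, Ccne2 -0.18 to 1.26 and Top2a -0.59 to 0.087. With quality weights Mcm4 was -0.12, Cdt1 -0.18 and Tk1 -0.39. With length and GC offsets Mcm7 was 0.0061, Tipin -0.27, Rfc2 0.016, Rfc4 -0.29, Rnaseh2b -0.015, Pclaf -0.25, Cmpk1 -0.22, Ccne2 -0.31, E2f2 0.54 and Tk1 -0.094. With length offsets alone E2f2 was 0.17, Rb1 0.065, Top2a 0.046 and Tk1 -0.31. Tk1 was -0.0028 with RLE, -0.0029 with DESeq2, -2.41 with limma-voom and -1.24 with the block, and Ccne2 was -1.68 with limma-voom. Coding length, chosen after seeing the data, and the longest transcript multiply the ratio of Pcna to a single MCM gene by the same factor in every library. They therefore could not change whether the groups of such a ratio were apart. Pcna over the mean of the 6 MCM genes can change with length, and it stayed apart with both. Medians of the lists for origin firing, clamp loading, deoxynucleotide supply, ribonucleotide synthesis and E2F control turned in sign when 1 library was left out. All 10 genes had counts far above the 3 that a 0 allows. At similar totals of 17549429 and 18360352 counts, 18.4% of genes were at 0 in ConA+SIM replicate 2 and 9.34% in ConA replicate 2, and the cause was not tested.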
